A study of Mus musculus with 20 samples.

Results

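Negative feedback regulators of inflammation were followed in BV-2 microglia as a group of 10 genes: Tnfaip3, Tnip1, Tnip3, Socs1, Socs3, Zfp36, Zc3h12a, Peli1, Irak3 and Traf1. Members were selected by symbol, as the rows whose Ensembl mouse gene identifier carries one of these names in the annotation. That rule uses no measured value, but the 10 symbols were chosen with earlier results of these data known. All 10 were found among the 55487 genes of the count table, and all 10 passed the filter on low counts that left 12799 genes for testing.

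Lipopolysaccharide (LPS), a component of the bacterial outer membrane, is sensed by Toll-like receptor 4 on microglia, the resident immune cells of the brain, and switches on NF-kB and, through secreted cytokines, JAK-STAT signalling. The same pathways switch on genes whose products dampen them: A20 and its partners edit ubiquitin chains on signalling adaptors, SOCS proteins block cytokine receptors and their kinases, and RNA-binding proteins destroy cytokine mRNAs. Others act at the receptor complex or on the adaptors of the TNF receptor family. Not every member is purely inhibitory, since Peli1 and Traf1 are also known to promote signalling in some settings.

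The study asked how long-term cultivation alters microglia and their reaction to an immune stimulus. Poly(A) RNA was sequenced from 20 cultures of BV-2, a mouse microglial line made from brains of 1-week-old C57BL/6 mice. The cultures formed 4 groups of 5: young untreated, young with LPS, aged untreated and aged with LPS. Young cultures were grown from cells at low passage. Aged cultures came from frozen aliquots of cells of the same line that had been passaged over a long period from a later starting passage, and aliquots of both ages were thawed together. LPS was given at 100 ng/ml for 6 hours. All groups are therefore 1 immortal cell line without other brain cells, and duration of culture and starting passage cannot be told apart. How many separate long-term cultures stand behind the aged aliquots is not given in the sources used here, so the p-values measure the spread between these 20 cultures. Replicate numbers are the batch numbers of the labels, and each of the 5 batches holds 1 culture of every group.

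Counts per library totalled 11371508 to 16829292. Microglia and macrophage markers summed to 2543 to 4653 CPM (read counts scaled to a common library size with TMM factors), and 12 of 12 were above the floor of 3 counts in every untreated library against 10 of 12 in every LPS library, the others being Cx3cr1 and P2ry12. Marker lists of astrocytes, neurons, oligodendrocytes and fibroblasts summed to at most 1.78 CPM in any library, and the defining genes Aqp4, Aldh1l1, Gja1, Snap25, Map2, Syt1, Mog, Col3a1, Pdgfra and Dcn were at 0 in every library. LPS-treated cultures had lower TMM factors (0.891 to 0.973) than untreated ones (1.04 to 1.08). Scaling by library size alone shifted the median log2 fold change of all genes from -0.01 to -0.23 in the young LPS comparison and to -0.16 in the aged one, so fold changes below are relative to the TMM scale. In these bulk libraries, fewer responding cells and less RNA per cell cannot be told apart.

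Sequence upstream of the start sites was taken from RefSeq for the build GRCm38.p6, in which all 10 members had an entry, and searched on both strands for 4 motifs within 250 bases. Windows are shown for the 5 members that belong to the A20 complex or the SOCS family, the groups in which matches were found in every member, trimmed where a GENCODE exon covered them. All are written 5′ to 3′ in the direction of the gene, with matches in capitals. Positions are counted from the RefSeq start site, which is 0. The 10 members had 12 windows, since Tnfaip3 and Irak3 each have a further RefSeq start site, and the further window of Tnfaip3 held no match. The windows shown for Tnfaip3, Tnip3 and Socs3 lie inside the GENCODE bounds of these genes given below. All 250 bases of the Zfp36 window, not shown, are in GENCODE exons. For these 4 genes the matches are thus upstream of a RefSeq start site but not of the whole annotated gene.
Tnfaip3 (upstream bases of the minus strand, chr10:19015411-19015547): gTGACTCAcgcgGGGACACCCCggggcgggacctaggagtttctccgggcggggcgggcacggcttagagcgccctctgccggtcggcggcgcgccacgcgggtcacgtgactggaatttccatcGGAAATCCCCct
Tnip1 (minus strand, chr11:54962941-54963190): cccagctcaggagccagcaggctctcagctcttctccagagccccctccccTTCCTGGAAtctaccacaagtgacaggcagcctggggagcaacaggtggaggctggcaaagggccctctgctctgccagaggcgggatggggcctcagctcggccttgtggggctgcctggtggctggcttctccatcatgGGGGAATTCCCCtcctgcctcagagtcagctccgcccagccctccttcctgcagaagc
Tnip3 (plus strand, chr6:65590148-65590397): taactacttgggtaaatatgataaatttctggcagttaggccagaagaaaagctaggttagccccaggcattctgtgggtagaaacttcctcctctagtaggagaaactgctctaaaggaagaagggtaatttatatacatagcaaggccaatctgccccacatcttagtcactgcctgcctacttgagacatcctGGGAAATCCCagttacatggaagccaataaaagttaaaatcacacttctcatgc
Socs1 (minus strand, chr16:10785537-10785786): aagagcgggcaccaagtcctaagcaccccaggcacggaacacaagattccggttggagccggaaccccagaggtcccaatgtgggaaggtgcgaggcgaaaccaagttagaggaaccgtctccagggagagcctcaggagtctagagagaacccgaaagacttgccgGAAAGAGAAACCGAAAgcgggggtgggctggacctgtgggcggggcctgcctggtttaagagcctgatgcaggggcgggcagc
Socs3 (minus strand, chr11:117969452-117969616): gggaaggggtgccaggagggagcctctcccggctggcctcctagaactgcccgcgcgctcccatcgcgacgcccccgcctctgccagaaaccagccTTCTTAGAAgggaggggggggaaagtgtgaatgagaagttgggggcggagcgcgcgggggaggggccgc

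The capitals nearest the start site of Tnfaip3, from -12 to -3, match the NF-kB consensus on the opposite strand, and those from -125 to -116 match it on the gene's strand. An AP-1 motif (TGANTCA) lies beside the latter, from -136 to -130. In Tnip1 the capitals from -58 to -47 hold 4 overlapping NF-kB matches, and in Tnip3 those from -54 to -45 match the same consensus on both strands. Socs1 carries 2 overlapping interferon response motifs (GAAA, 2 bases of any kind, then GAAA) from -83 to -68, and Socs3 a STAT motif (TTCNNNGAA) from -154 to -146. STAT motifs were also present in Tnip1, from -199 to -191, and in Zfp36, from -17 to -9. Of 32851 upstream windows of the same length in the genome, 3.9% held the NF-kB consensus, 7.02% the STAT motif, 2.98% the interferon response motif and 6.75% the AP-1 motif. These are letter matches, not binding sites. No match was found in the windows of Zc3h12a, Peli1, Irak3 and Traf1, which says only that these letters are not there.

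LPS raised all 10 regulators in both ages. In the young cultures 10 of 10 members rose, beside 31.2% of all tested genes called higher, and in the aged cultures 10 of 10 rose, beside 27.5%. Untreated and LPS-treated cultures did not overlap for any member at either age, against 23.9% of genes without overlap and higher in the young and 21.0% in the aged comparison. Folds of the mean CPM in young cultures ran from 2.75 for Zfp36 and 2.77 for Peli1 to 34.6 for Socs1 and 79.2 for Traf1. The median log2 fold change of the members was 3.17 in young and 3.07 in aged cultures, where the medians of all tested genes were -0.01 and 0.00051.

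**Figure D1:**
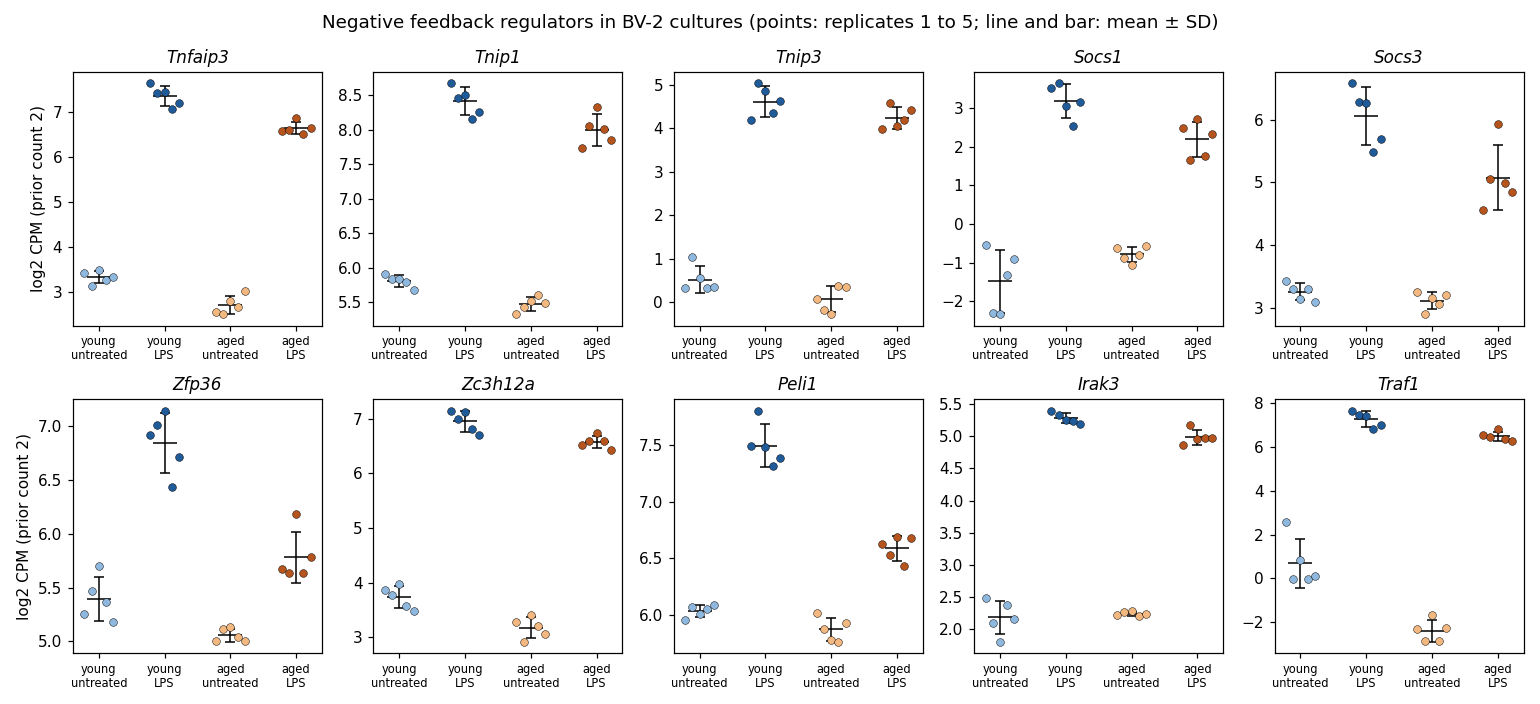
Level of each of the 10 regulators in the 20 cultures, as log2 CPM with a prior count of 2 (vertical axis, a separate scale for each gene) by group (horizontal axis). Points are replicates 1 to 5 from left to right, lines are means and bars are SD. All LPS-treated points lie above all untreated points of the same age, and the aged LPS points of Tnfaip3, Zfp36, Peli1, Irak3 and Traf1 lie below all young LPS points.

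Aged cultures held less mRNA of the regulators than young ones once LPS was given. Under LPS all 10 members were lower in aged than in young cultures at an edgeR adjusted p below 0.05, beside 15.0% of all genes called lower. Each of the 10 was lower in all 5 batches, beside 16.4% of genes, and 5 of them (Tnfaip3, Zfp36, Peli1, Irak3 and Traf1) had groups without overlap, beside 8.16%. Aged levels were 47.7% of the young mean for Zfp36, 49.9% for Socs1, 51.3% for Socs3, 53.1% for Peli1 and 81.5% for Irak3, with the other 5 between. With a log2 fold change of at least 0.5 also asked for, 6 of the 10 remained called.

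Without LPS, 4 members were lower in aged cultures: Tnfaip3, Tnip1, Zc3h12a and Traf1, beside 7.81% of genes called lower. No member was higher in edgeR, beside 3.71% of genes, nor at an unadjusted p under 0.05 in edgeR or DESeq2 (0 of 10 in each). Values were lower in 5 of 5 batches for these 4 and for Zfp36 (5 members, beside 16.3% of genes), and the same 5 had groups without overlap (beside 6.64%). The median log2 difference of the members was -0.34 without and -0.76 with LPS, against -0.01 and 0.01 over all genes.

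The size of the LPS response itself differed between ages for 3 members. Peli1 and Zfp36 rose less in aged cultures, beside 2.27% of genes called smaller, and the fitted response of Traf1 was larger, beside 4.12% called larger. For 5 members (Socs1, Socs3, Zfp36, Peli1 and Irak3) the log2 response was smaller in aged cultures in every batch, beside 10.8% of genes, and for Traf1 it was larger in every batch, beside 14.7%. All these comparisons use the same 4 groups, so the LPS responses and the age differences are not independent of one another.

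**Figure D2:**
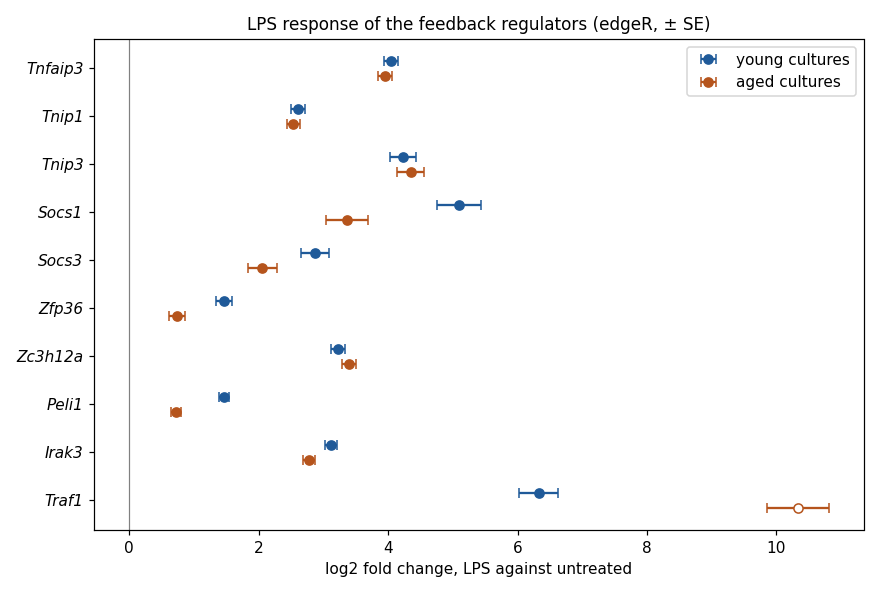
Log2 fold change of LPS-treated against untreated cultures (horizontal axis) for each regulator (vertical axis), young in blue and aged in orange. Points are edgeR estimates and bars their SE, and the open circle marks Traf1 in aged cultures, whose untreated libraries are all at or below 3 counts. The widest gap between the ages is that of Traf1, farther right in aged cultures, followed by Socs1, Socs3, Peli1 and Zfp36, all farther left in aged cultures (the differences of Socs1 and Socs3 did not pass the test), whereas Tnfaip3, Tnip1, Tnip3 and Zc3h12a lie close together.

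The A20 complex: Tnfaip3 encodes A20, a ubiquitin-editing enzyme that shuts down NF-kB signalling, and Tnip1 and Tnip3 encode the A20-binding proteins ABIN-1 and ABIN-3. Tnfaip3 (ENSMUSG00000019850, chr10:19000910-19015657 on the minus strand of GRCm38) measured 10.6, 8.75, 11.1, 9.55 and 10.0 CPM in the untreated and 199.7, 171, 175, 136 and 148 CPM in the LPS-treated young cultures, replicates 1 to 5 in order. Aged cultures gave 5.81, 5.58, 6.84, 6.25 and 7.98 CPM without and 95.9, 97.9, 117, 92.1 and 101 CPM with LPS. Both young groups lay wholly above the corresponding aged groups. LPS raised Tnfaip3 by 4.05 ± 0.11 log2 units (estimate ± SE) in young and 3.95 ± 0.11 in aged cultures, 16.6-fold and 15.5-fold on mean CPM (edgeR adjusted p = 2.10e-18 and 1.02e-17). The response of aged minus young was -0.09 ± 0.15 log2 units (95% interval -0.41 to 0.23, edgeR adjusted p = 0.824). The age difference was -0.62 ± 0.12 without LPS (edgeR adjusted p = 0.00221) and -0.72 ± 0.09 with it (adjusted p = 3.86e-06), so aged cultures stood at 64.9% and 60.8% of the young level.

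Tnip1 (ENSMUSG00000020400, chr11:54910785-54962917, minus strand) measured 60.2, 57.0, 57.2, 55.7 and 50.9 CPM in the untreated and 407, 349.6, 364, 286 and 306 CPM in the LPS-treated young cultures. In aged cultures it was 40.1, 43.3, 46.0, 48.4 and 44.8 CPM without and 212, 265, 321, 259 and 231 CPM with LPS. Untreated groups did not overlap, while under LPS the aged replicate 3 reached above young replicates 4 and 5. The LPS response was 2.61 ± 0.10 log2 units in young and 2.53 ± 0.10 in aged cultures (edgeR adjusted p = 8.74e-16 and 2.82e-15), and the difference of the responses was -0.08 ± 0.14 (95% interval -0.36 to 0.21, adjusted p = 0.843). Aged cultures were lower, at -0.41 ± 0.09 with LPS (edgeR adjusted p = 0.00203) and -0.34 ± 0.10 without (adjusted p = 0.0326). The untreated call was lost when replicate 1, 2, 4 or 5 was left out (adjusted p = 0.0757, 0.170, 0.0504 and 0.0537).

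Tnip3 (ENSMUSG00000044162, chr6:65525313-65634040, plus strand) was scarce without LPS. It measured 1.10, 1.92, 1.33, 1.12 and 1.13 CPM in the untreated and 18.1, 32.6, 29.1, 20.2 and 24.7 CPM in the LPS-treated young cultures. Aged cultures held 0.904, 0.739, 0.684, 1.15 and 1.13 CPM without and 15.6, 23.7, 16.5, 18.0 and 21.5 CPM with LPS. Young replicate 2 stood above the other untreated young cultures, and the ages overlapped in both conditions. With LPS it rose by 4.23 ± 0.20 log2 units in young and 4.35 ± 0.21 in aged cultures (edgeR adjusted p = 1.75e-14 and 5.91e-14). The age difference was -0.51 ± 0.29 without LPS (edgeR adjusted p = 0.284) and -0.40 ± 0.15 with it (adjusted p = 0.0446). This last call is the weakest of the 10: it was lost with library sizes alone (adjusted p = 0.100), with only the groups compared (0.0979) and without replicate 2, 3, 4 or 5 (0.0770, 0.221, 0.0587 and 0.0750). The difference of the responses was 0.12 ± 0.32 (95% interval -0.55 to 0.78).

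The SOCS family: Socs1 and Socs3 encode suppressors of cytokine signalling, which are induced through STAT proteins and inhibit the JAK kinases, Socs1 mainly below interferon receptors and Socs3 mainly below the IL-6 receptor subunit gp130. Socs1 (ENSMUSG00000038037, chr16:10782240-10785536, minus strand) measured 0.551, 0.0638, 0.0603, 0.263 and 0.399 CPM in the untreated and 11.3, 12.3, 8.13, 5.66 and 8.83 CPM in the LPS-treated young cultures. The untreated young values stand for 8, 1, 1, 4 and 6 counts, so they are close to the floor. Aged cultures measured 0.517, 0.403, 0.342, 0.439 and 0.532 CPM without and 5.47, 3.05, 6.41, 3.25 and 4.91 CPM with LPS. Under LPS 4 of 5 young values lay above every aged value, and young replicate 4 fell within the aged range. The LPS response was 5.10 ± 0.34 log2 units in young and 3.36 ± 0.33 in aged cultures (edgeR adjusted p = 9.96e-12 and 1.01e-08). The difference of the responses, -1.73 ± 0.58 (95% interval -2.95 to -0.52), missed the threshold at an edgeR adjusted p of 0.0839, and passed it in DESeq2 (0.0113) and without young untreated replicate 1 (0.0445). Aged LPS cultures were lower, at -0.98 ± 0.22 (edgeR adjusted p = 0.00196), while the untreated difference was 0.75 ± 0.54 (adjusted p = 0.414).

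Socs3 (ENSMUSG00000053113, chr11:117966079-117970047, minus strand) measured 10.6, 9.77, 8.68, 9.75 and 8.45 CPM in the untreated and 95.3, 78.0, 77.1, 44.4 and 51.5 CPM in the LPS-treated young cultures. Aged cultures measured 9.37, 7.33, 8.78, 8.23 and 9.11 CPM without and 23.5, 33.1, 60.9, 31.7 and 28.6 CPM with LPS. Untreated levels of the ages were interleaved. Under LPS aged replicate 3 stood far above the other 4 aged cultures and above young replicates 4 and 5, which were the lowest of the young group. LPS raised Socs3 by 2.87 ± 0.22 log2 units in young and 2.06 ± 0.23 in aged cultures, 7.33-fold and 4.15-fold on mean CPM (edgeR adjusted p = 1.35e-10 and 7.21e-08). The age difference was -0.96 ± 0.20 with LPS (edgeR adjusted p = 0.000923) and -0.14 ± 0.25 without (adjusted p = 0.783). The difference of the responses was -0.81 ± 0.32 (95% interval -1.47 to -0.16, edgeR adjusted p = 0.143). It became -1.02 with an adjusted p of 0.0406 when replicate 3 was left out.

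Regulators of mRNA decay: Zfp36 encodes tristetraprolin, which binds AU-rich elements of cytokine mRNAs and recruits deadenylases, and Zc3h12a encodes the endonuclease Regnase-1, which cuts stem-loops in such mRNAs. Zfp36 (ENSMUSG00000044786, chr7:28376784-28380253, minus strand) was already abundant without LPS. It measured 38.0, 44.1, 52.0, 41.2 and 36.1 CPM in the untreated and 121, 129, 141, 86.3 and 105 CPM in the LPS-treated young cultures. Aged cultures gave 31.9, 34.5, 34.9, 32.8 and 32.0 CPM without and 50.9, 49.4, 72.8, 49.5 and 54.8 CPM with LPS. The lowest young culture was above the highest aged one in both conditions, although aged LPS replicate 3 stood apart from its group. LPS raised Zfp36 2.75-fold in young and 1.67-fold in aged cultures, which is 1.46 ± 0.12 and 0.74 ± 0.12 log2 units (edgeR adjusted p = 4.35e-10 and 2.56e-05). Within batches the fold ranged from 2.10 to 3.18 in young and from 1.43 to 2.09 in aged cultures. The response was smaller in aged cultures, -0.72 ± 0.17 (95% interval -1.08 to -0.36, edgeR adjusted p = 0.0135). That call was lost without replicate 1, 2 or 5 (adjusted p = 0.0758, 0.154 and 0.0626).

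The gain in Zfp36 over the untreated level, as a difference of mean CPM, came to 74.2 CPM for young but 22.3 CPM for aged cultures. Under LPS the age difference was -1.07 ± 0.12 log2 units (edgeR adjusted p = 1.19e-06), the largest of the 10 members. Without LPS it was -0.35 ± 0.12, with an edgeR adjusted p of 0.0726 and of 0.0117 with the replicate block, which removes differences between batches. An antisense gene, Gm44710, overlaps exons of Zfp36 with 85 counts in all libraries, and since the strand setting of the counting is not given in the sources used here, its reads are not separable with certainty.

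Zc3h12a (ENSMUSG00000042677, chr4:125118423-125127840, minus strand) measured 14.5, 13.5, 15.6, 11.8 and 11.0 CPM in the untreated and 140.3, 127, 139, 112 and 104 CPM in the LPS-treated young cultures. Aged cultures measured 9.63, 7.46, 10.5, 9.11 and 8.18 CPM without and 91.2, 96.4, 107, 95.8 and 85.5 CPM with LPS. Aged values lay below all young ones without LPS, and under LPS aged replicate 3 passed young replicate 5 alone. The response was 3.23 ± 0.10 log2 units in young and 3.40 ± 0.11 in aged cultures (edgeR adjusted p = 4.30e-17 and 5.62e-17), 9.38-fold and 10.6-fold. The age difference was -0.56 ± 0.12 without LPS (edgeR adjusted p = 0.00317) and -0.39 ± 0.09 with it (adjusted p = 0.00249). The difference of the responses, 0.17 ± 0.15 (95% interval -0.13 to 0.48), did not pass the test. Both decay regulators were thus lower in aged LPS cultures, and only for Zfp36 did the response pass the test of a difference.

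**Figure D3:**
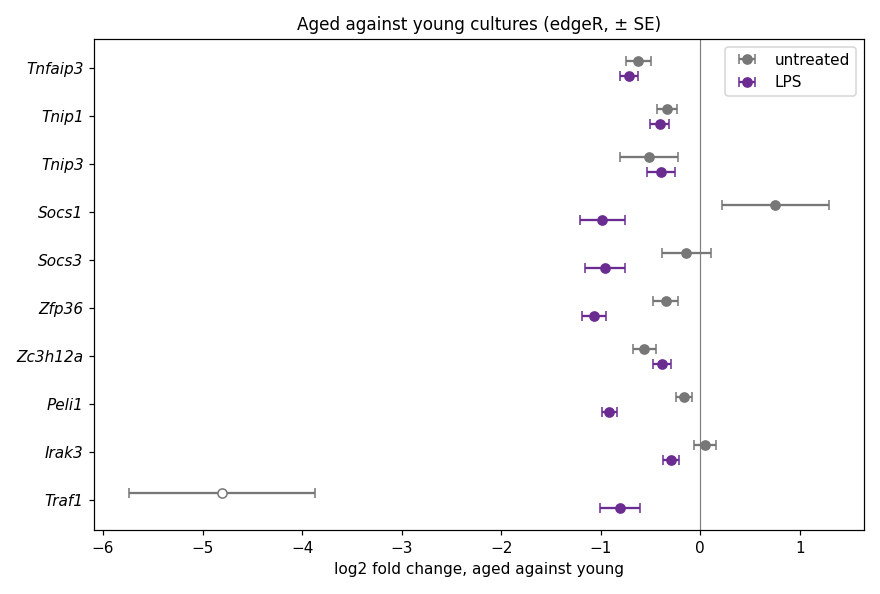
Log2 fold change of aged against young cultures (horizontal axis) for each regulator (vertical axis), untreated in grey and LPS-treated in purple. Points are edgeR estimates with SE bars, and the open circle marks the untreated Traf1 estimate, in which the aged libraries are at or below 3 counts. All 10 purple points lie left of 0, between -0.30 and -1.07, while the grey points of Socs1 and Irak3 lie right of it.

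Regulators at receptor complexes and adaptors: Peli1 encodes Pellino-1, an E3 ubiquitin ligase of Toll-like and IL-1 receptor signalling, Irak3 encodes IRAK-M, a kinase homologue that restrains this signalling, and Traf1 encodes an adaptor of the TNF receptor family. Peli1 (ENSMUSG00000020134, chr11:21091291-21150323, plus strand) measured 62.1, 67.2, 64.4, 66.1 and 68.0 CPM in the untreated and 179.5, 223, 179, 159 and 167 CPM in the LPS-treated young cultures. Aged cultures measured 64.5, 58.4, 54.9, 54.3 and 60.7 CPM without and 98.6, 91.9, 103, 86.1 and 102 CPM with LPS. Untreated ages overlapped, whereas under LPS the highest aged culture was far below the lowest young one. Peli1 rose 2.77-fold in young and 1.64-fold in aged cultures, 1.47 ± 0.08 and 0.72 ± 0.08 log2 units (edgeR adjusted p = 1.00e-13 and 3.48e-08). Within batches the fold was 2.40 to 3.32 in young and 1.53 to 1.87 in aged cultures, so the ranges did not overlap. The difference of the responses was -0.75 ± 0.11 (95% interval -0.97 to -0.53, edgeR adjusted p = 0.000224), and it kept its call under every alternative that was run. The age difference was -0.91 ± 0.07 with LPS (edgeR adjusted p = 1.52e-08) and -0.16 ± 0.08 without (adjusted p = 0.175).

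Irak3 (ENSMUSG00000020227, chr10:120141648-120202130, minus strand) measured 5.44, 4.15, 3.38, 5.07 and 4.32 CPM in the untreated and 41.9, 40.2, 38.0, 37.7 and 36.2 CPM in the LPS-treated young cultures. Aged cultures measured 4.52, 4.71, 4.73, 4.50 and 4.59 CPM without and 29.0, 36.0, 30.7, 31.2 and 31.1 CPM with LPS. Untreated aged values sat inside the young range, and under LPS the highest aged culture was just below the lowest young one. LPS raised Irak3 by 3.12 ± 0.09 log2 units in young and 2.77 ± 0.09 in aged cultures (edgeR adjusted p = 1.19e-17 and 1.06e-16). The age difference under LPS, -0.30 ± 0.08 (edgeR adjusted p = 0.00616), was the smallest of the 10, and without LPS it was 0.05 ± 0.11 (adjusted p = 0.835). The difference of the responses was -0.34 ± 0.13 (95% interval -0.62 to -0.07, edgeR adjusted p = 0.140). Exons of Irak3 overlap those of Tmbim4, a gene on the opposite strand with 8789 counts, so its counts are uncertain where strand was not used.

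Traf1 (ENSMUSG00000026875, chr2:34941750-34961772, minus strand) had the largest fold response of the 10. It measured 5.72, 0.830, 1.63, 0.856 and 0.931 CPM in the untreated and 201, 177, 172, 112 and 127 CPM in the LPS-treated young cultures. Untreated aged libraries held 1, 0, 3, 0 and 1 counts, all at or below the floor of 3 counts, and aged LPS cultures measured 92.3, 87.2, 112, 81.8 and 78.0 CPM. Young untreated replicate 1, with 83 counts, stood apart from the other 4, which held 13 to 27 counts. LPS raised Traf1 79.2-fold in young cultures on mean CPM, and 149-fold without that replicate. In aged cultures it was at least 485-fold higher with LPS, taking the floor per library for the untreated group. The fitted log2 responses, 6.33 ± 0.30 and 10.33 ± 0.48 (edgeR adjusted p = 1.94e-14 and 3.13e-14), depend for aged cultures on counts of 0.

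Without LPS, Traf1 was at least 10.7-fold lower in aged than in young cultures (edgeR adjusted p = 0.00170), and at least 5.70-fold lower when young replicate 1 was left out. With LPS it was also lower in aged cultures, at 57.2% of the young mean (-0.80 ± 0.20 log2 units, edgeR adjusted p = 0.00405). This last call was not made by DESeq2 (adjusted p = 0.169, and 0.149 with the replicate block). The fitted response was larger in aged cultures by 4.00 ± 1.03 log2 units (edgeR adjusted p = 0.0208), a call lost without replicate 2 (0.0814) or 5 (0.0532). As a gain in mean CPM, aged cultures added 90.2 CPM and young cultures 156 CPM, so the direction depends on whether a ratio or a difference is taken.

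Measured as that gain, the aged cultures reached 30.0% of the young gain for Zfp36, 32.6% for Peli1, 45.1% for Socs3, 46.4% for Socs1 and 57.9% for Traf1. For Tnfaip3 it was 60.5%, for Tnip1 74.4%, for Tnip3 76.7%, for Zc3h12a 77.4% and for Irak3 78.6%. Every member therefore gained fewer CPM in aged cultures. These are descriptions of means over 5 cultures a group, and the gain was not tested.

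Levels of different genes can be set side by side only per length. The length used joins the exons of all annotated transcripts, from 2882 bases for Zc3h12a to 10916 for Tnip3. Which transcripts the cultures made was not tested, so these values are approximate. Per kilobase of annotated exons, Tnip1 was the most abundant member in every group, at 15.9 ± 0.958 CPM per kilobase (mean ± SD, n = 5) in young untreated, 96.7 ± 13.5 in young LPS, 12.6 ± 0.878 in aged untreated and 72.8 ± 11.7 in aged LPS cultures. Behind it in the young untreated group came Zfp36 (12.2 ± 1.79), Peli1 (10.0 ± 0.361), Zc3h12a (4.61 ± 0.657) and Socs3 (3.27 ± 0.306). Tnfaip3 (1.39 ± 0.127) and Irak3 (1.22 ± 0.221) followed and did not differ beyond their spread, nor did Traf1 (0.226 ± 0.239), Tnip3 (0.121 ± 0.0317) and Socs1 (0.0920 ± 0.0734) at the low end. The group therefore holds regulators that are readily detected at rest and others near the floor.

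After LPS the order in young cultures was Tnip1, Zc3h12a (43.2 ± 5.61 CPM per kilobase), Zfp36 (33.6 ± 6.20), Peli1 (27.7 ± 3.78), Socs3 (24.0 ± 7.24), Tnfaip3 (22.9 ± 3.46) and Traf1 (17.9 ± 4.21). From Zc3h12a to Traf1, each neighbour overlapped the next within 1 SD. Irak3 (10.6 ± 0.614), Socs1 (3.19 ± 0.915) and Tnip3 (2.29 ± 0.555) were lowest, and Socs1 and Tnip3 were within their spread. Before division by length, Tnip3 was above Socs1 (means of 25.0 and 9.26 CPM), so their order rests on the length used. In aged LPS cultures Tnip1 and Zc3h12a (33.0 ± 2.71) again led, ahead of Zfp36 (16.0 ± 2.85), Peli1 (14.7 ± 1.09), Tnfaip3 (13.9 ± 1.31) and Socs3 (12.3 ± 5.06), which overlapped within 1 SD.

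**Figure D4:**
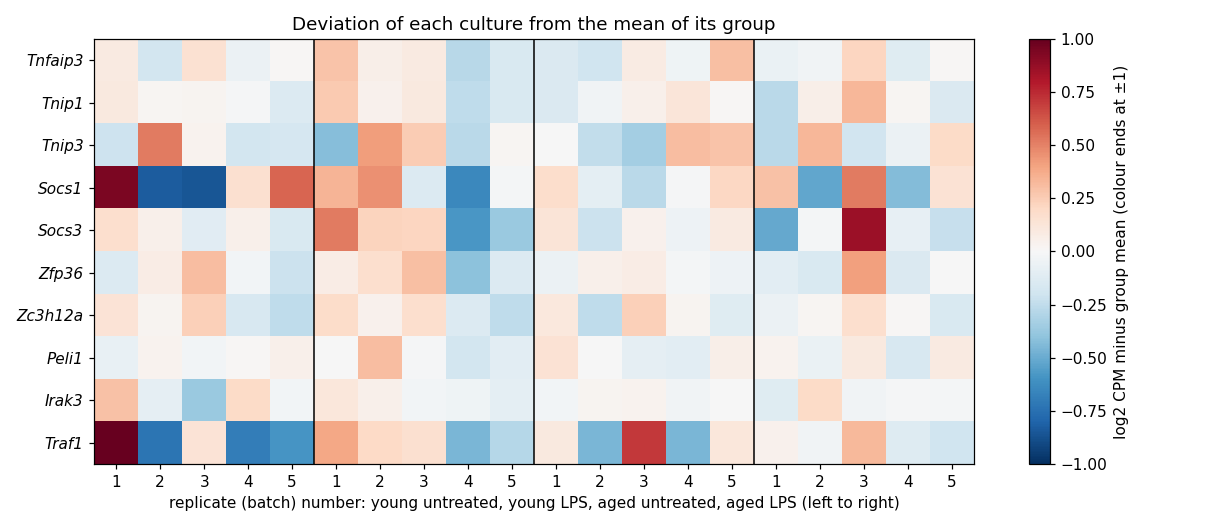
Deviation of each culture from the mean of its group, as log2 CPM (colour, which ends at ±1) for each regulator (rows) and replicate 1 to 5 of the 4 groups (columns, from left to right young untreated, young LPS, aged untreated and aged LPS). The young LPS columns 4 and 5 are mostly blue, below their group mean for 10 and 9 of the 10 members, and aged LPS column 3 is mostly red, above it for 8.

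Some cultures were low or high for most members at once. Among young LPS cultures, replicate 4 was below the group mean for all 10 members, with a median deviation of -0.27 log2 units, and replicate 5 for 9 of 10 (median -0.14). These replicates were the lowest pair for 8 of 10 members. Among aged LPS cultures, replicate 3 was above the mean for 8 of 10 (median 0.27). The number of members lower in aged LPS cultures stayed between 9 and 10 when each replicate was left out in turn, and the untreated number between 3 and 4.

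Family relatives outside the group moved in both directions, as did all tested genes. Of 23 listed relatives 19 were tested. Under LPS 9 rose and 7 fell in young cultures, beside 3988 and 4282 of all 12799 tested genes. In aged cultures 8 rose and 5 fell, beside 3523 and 3445. Median log2 fold changes of the relatives were 0.13 in young and 0.05 in aged cultures, beside those of 3.17 and 3.07 for the members. Zfp36l1, which like Zfp36 promotes decay of AU-rich mRNAs, fell by 1.62 ± 0.12 log2 units in young and by 1.29 ± 0.12 in aged cultures (edgeR adjusted p = 7.39e-11 and 4.91e-09). Zfp36l2, the other relative of Zfp36, measured -0.07 ± 0.05 in young (adjusted p = 0.248) and rose by 0.36 ± 0.05 in aged cultures, a difference of 0.43 ± 0.07 (edgeR adjusted p = 0.00118) and opposite in sign to that of Zfp36. Zc3h12c, a relative of Zc3h12a, rose by 2.66 ± 0.07 and 2.64 ± 0.07 (edgeR adjusted p = 4.04e-18 and 1.02e-17). Zc3h12b, Zc3h12d, Peli2 and Peli3 had too few counts to be tested.

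Among kinases of the IRAK family, Irak2 rose by 2.27 ± 0.09 in young and 2.18 ± 0.09 in aged cultures (edgeR adjusted p = 1.68e-15 and 9.06e-15), and Irak4, the kinase at the start of the cascade, fell by 0.49 ± 0.10 and 0.33 ± 0.10 log2 units (adjusted p = 0.000110 and 0.00553). Cish, a further STAT-induced SOCS gene, rose by 2.74 ± 0.41 and 1.46 ± 0.48 (edgeR adjusted p = 3.58e-06 and 0.0129). Socs7 rose by 0.74 ± 0.07 and 0.35 ± 0.07, with a smaller response in aged cultures of -0.39 ± 0.10 (edgeR adjusted p = 0.0275). Socs4 and Socs6 fell in both ages. Traf2, the partner of Traf1 at TNF receptors, rose by 0.87 ± 0.07 and 0.74 ± 0.07 (edgeR adjusted p = 1.28e-10 and 4.00e-09). Comparing aged with young, 1 relative was higher and 2 were lower without LPS, beside 475 and 1000 of all 12799 genes. With LPS 4 were higher and 5 lower, beside 1794 and 1923.

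**Figure D5:**
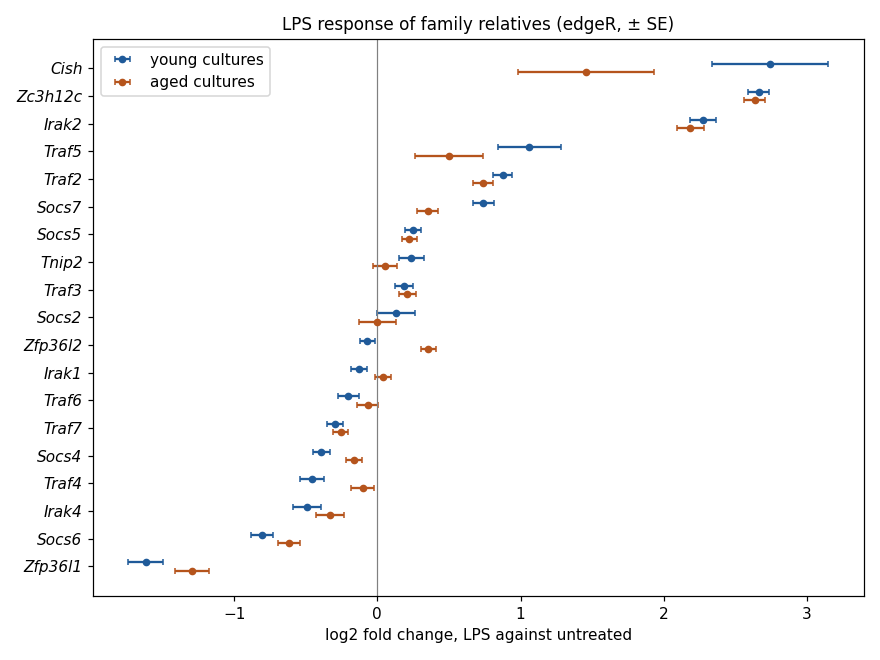
Log2 fold change of LPS-treated against untreated cultures (horizontal axis) for the 19 tested family relatives of the regulators (vertical axis), young in blue and aged in orange, as edgeR estimates with SE bars. Cish, Zc3h12c and Irak2 lie farthest to the right and Zfp36l1 farthest to the left, with most relatives between -1 and 1.

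A second list held 22 other negative regulators, of which 21 were tested. Under LPS 15 rose and 3 fell in young cultures, beside 3988 and 4282 of all 12799 tested genes. In aged cultures 14 rose and 3 fell, beside 3523 and 3445. Aged cultures were lower for 7 and higher for 2 without LPS, beside 1000 and 475 of all genes. With LPS they were lower for 13 and higher for 2, beside 1923 and 1794. Nfkbib, an inhibitor of NF-kB, was the one gene of this list whose response passed the test of a difference, at -0.49 ± 0.12 log2 units (edgeR adjusted p = 0.0119). Over all genes 2.27% had a smaller response in aged cultures and 4.12% a larger one. Usp18, which dampens interferon signalling, had the largest response in young cultures, 6.30 ± 0.35, and in aged LPS cultures stood at 0.499 of its young level (edgeR adjusted p = 0.00255). Il1rn, the IL-1 receptor antagonist, responded by 5.22 ± 0.24 in young and 5.23 ± 0.24 in aged cultures, and its age difference under LPS was -0.45 ± 0.19 (adjusted p = 0.0803).

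The pathway above the members was represented by 24 genes, from the LPS receptor to NF-kB and STAT, all of them tested. In young cultures 16 rose and 6 fell with LPS, beside 3988 and 4282 of all 12799 tested genes. In aged cultures 15 rose and 6 fell, beside 3523 and 3445. Aged cultures were lower for 3 without LPS, beside 7.81% of all genes, and for 16 with it, beside 15.0%. They were higher for 0 in both in edgeR and DESeq2, beside 475 and 1794 of all 12799 genes in edgeR. At an unadjusted p under 0.05 in edgeR, 0 were higher without and 1 with LPS, Il6st, the shared gp130 receptor subunit. The response was smaller in aged cultures for 4 in edgeR, beside 2.27% of all genes. It was larger for 0 in edgeR, beside 4.12%, and for 0 in DESeq2 (2 at an unadjusted edgeR p under 0.05, Il6st and Ticam2). Jak2, a kinase that SOCS proteins inhibit, had a difference of -0.69 ± 0.17 log2 units (edgeR adjusted p = 0.0132), Myd88, the adaptor of Toll-like receptors, -0.38 ± 0.10 (adjusted p = 0.0230) and Stat3, which induces Socs3, -0.37 ± 0.10 (adjusted p = 0.0239).

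Cytokine and other mRNAs that Zfp36 or Zc3h12a are known to destabilize formed a list of 13, of which 8 had enough counts. Il12b, Il10, Il23a, Csf2 and Cxcl1 had too few to be tested. All 8 rose with LPS at both ages, beside 31.2% and 27.5% of all genes. Without LPS 3 of the 8 were already lower in aged cultures (median log2 difference -0.53, beside 7.81% of genes called lower). With LPS all 8 were lower (median -0.91, beside 15.0%), as were Zfp36 and Zc3h12a themselves. By RT-qPCR, the paper reports more Il10 mRNA in aged than in young cells under LPS, and no significant difference in Tnf. Il1b was at 351 ± 219 CPM (mean ± SD, n = 5) in young and 73.7 ± 68.4 CPM in aged LPS cultures, a difference of -2.25 ± 0.47 log2 units (edgeR adjusted p = 0.000977). Il6 was at 33.0 ± 16.5 and 5.14 ± 3.70 CPM (-2.66 ± 0.39, edgeR adjusted p = 4.43e-05), and Cxcl2 at 218 ± 79.3 and 53.7 ± 9.52 CPM (-2.02 ± 0.25, adjusted p = 8.12e-06). For the difference of responses, 0 of the 8 passed in edgeR (2 at an unadjusted p under 0.05, Ccl3 and Ptgs2, both smaller in aged cultures), and DESeq2 called 1, Cxcl2, larger in aged cultures.

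For each member, the tested gene outside the group with the most similar profile over the 20 cultures was found by the root-mean-square difference of log2 CPM, each gene centred on its own mean. The distances, in log2 units, were smallest for Peli1 with Sppl2a (0.115) and Tnip1 with Cpd (0.141). Zc3h12a was nearest to Slc15a3 (0.152), Tnfaip3 to Helz2 (0.153), Zfp36 to Tmem106a (0.159), Socs3 to Sdc4 (0.176) and Irak3 to Plpp1 (0.194). Tnip3, Traf1 and Socs1, the members with the lowest untreated counts, had more distant neighbours: Pde4b at 0.353, Csf3 at 0.484 and Stx11 at 0.486. Within the group the closest pair was Zfp36 and Peli1, at 0.190. These distances mix condition and age, since they are taken over all 4 groups, and are descriptions without a test.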

How the data were processed

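RNA was sequenced by the study as paired-end reads from stranded, poly(A)-selected Illumina libraries of 20 BV-2 cultures. The authors aligned the reads to mouse GRCm38 with STAR 2.6.1d, counted them per gene with featureCounts 1.5.1 and deposited whole-number counts without normalization. FastQC 0.11.8 is named in the submitters' processing notes. The strand, multi-mapping and overlap settings of the counting are not given in the sources used here, so genes that overlap others are uncertain. Columns were matched to the labels by name, and no sample column was left unused.

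Symbols, positions and exon lengths came from GENCODE for GRCm38, which held 55141 of the 55487 identifiers. The test was the quasi-likelihood one of edgeR 4.0.16 (with limma 3.58.1 in R 4.3.3) after TMM scaling and filterByExpr, with all 20 libraries in one fit and group as the only factor. Benjamini-Hochberg adjustment ran over 12799 genes, and adjusted p-values below 0.05 were called. The SE of a log2 fold change is its size divided by the square root of F, and intervals are 95%. CPM values use TMM-scaled library sizes, and a floor of 3 counts per library was used for lower bounds, which cover counting error only. Total counts of 11371508 to 16829292 (median 14370473) put that floor at 0.178 to 0.264 CPM before TMM scaling. Libraries of 1 group differed by more than sampling noise in all 40 pairs (chi-square per degree of freedom 2.42 to 26.8), so none was a copy of another. Whether the cultures were independent cannot be read from this, and each library was counted as 1 sample.

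The replicate number is the batch of the labels, and cultures of the 4 groups share each number. After subtracting group means, cultures with the same number correlated across genes at 0.146 on average (range -0.214 to 0.394). Within an age the mean was 0.276 between young untreated and LPS, and 0.260 between aged untreated and LPS. Between ages it was lower: 0.111 for the untreated groups and 0.0425 for the LPS groups (range -0.214 to 0.275). Young untreated with aged LPS gave 0.0925, and young LPS with aged untreated 0.0941. Counts of batches for aged against young therefore compare cultures that were only weakly paired. Other settings tried were the Wald test of DESeq2 1.42.0, a replicate block in either tool, size factors from DESeq2, no scaling beyond library size, no filter or at least 10 counts in every library, only the groups compared, stricter thresholds, each replicate number left out, and young untreated replicate 1 left out.

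The members and the lists were chosen with earlier results of these data known. All 10 members are named. By rule, each other list has at most 3 genes named with their values, those with the largest difference of responses among those past the test and then the largest LPS response in young cultures, and relatives of a member by family. Il6st, Ticam2, Ccl3 and Ptgs2 fall outside this rule and were named after their values were seen. The likeness measure names 1 gene per member. For a check of the tools, counts of all 20 libraries were simulated from the young untreated means. They had 1 fixed dispersion, no batch differences, and 200 well-counted genes changed 2-fold in the young LPS group. On these, edgeR recovered 198 with 11 false calls among 12467 genes and DESeq2 197 with 22 among 12799. In the data 8270 genes were called in that comparison, so the simulation does not cover so broad a change. Nor does it cover values near the floor, as in Socs1 and Traf1.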

Additional observations from a re-analysis of the deposited data

Results flagged for a closer look

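Of 40 groups of 5 cultures (10 members in 4 groups), 4 held a culture far from the other 4 by Dixon's test at its 95% critical value, which chance gives in about 1 of 20 groups. Tnip3 was 1.92 CPM in young untreated replicate 2, above the other 4 at 1.10 to 1.33 CPM. Traf1 was 5.72 CPM in young untreated replicate 1, above the other 4 at 0.830 to 1.63 CPM. Socs3 was 60.9 CPM and Zfp36 72.8 CPM in aged LPS replicate 3, each the highest of that group. The same replicate was above its group mean for 8 of the 10 members, and no cause was tested.

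The response to LPS differed between the ages by the test of the difference itself for 3 members. The log2 difference, aged minus young, was -0.72 for Zfp36 (edgeR adjusted p = 0.0135), -0.75 for Peli1 (adjusted p = 0.000224) and 4.00 for Traf1 (adjusted p = 0.0208). For Zfp36 and Peli1 the sign was the same in 5 of 5 batches. For Traf1 the aged untreated libraries were all at or below 3 counts, so its value depends on how counts of 0 are handled.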

How the results depend on the processing

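Over 50 member results and 679 alternative values, 651 kept their direction and side of the threshold, 18 lost a call, 8 gained one and 2 turned sign. All LPS responses of the 10 members kept their calls under every alternative run for them. With a log2 fold change of at least 0.5, 6 members were called lower in aged LPS cultures, and with an adjusted p below 0.01 the responses of 1 member differed. Leaving out each replicate in turn gave 1 to 4 members with a different response, 3 to 4 lower without LPS and 9 to 10 lower with it. With a replicate left out, the untreated age difference of Irak3 ran from -0.0489 (without replicate 3) to 0.133, and the difference of the Tnip3 responses from -0.0926 (without replicate 2) to 0.226, none of them past the threshold. With the replicate block, 5 members were lower without LPS, Zfp36 included, and the block in edgeR changed no other call of a member. Zfp36 was also called there with no filter (adjusted p = 0.0482) and with only the groups compared (0.0168). DESeq2 with the block called Socs1 (0.0137) in the difference of responses. Requiring 10 counts in every library removed Socs1 and Traf1.

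Over all genes, library sizes alone changed the split of calls from 3988 higher and 4282 lower to 2407 and 6401 for LPS in young, from 3523 and 3445 to 2172 and 5476 for LPS in aged, from 475 and 1000 to 632 and 866 for age without LPS, from 1794 and 1923 to 3167 and 1353 for age with LPS, and from 527 and 291 to 881 and 203 for the difference of responses. Counts of 8270, 6968, 1475, 3717 and 818 genes in these comparisons fell to 4497, 3239, 475, 1289 and 385 with a log2 fold change of at least 0.5. With an adjusted p below 0.01 the last 3 were 622, 2333 and 328. Without replicate 2 they were 548, 2156 and 189, and the difference of responses had 532 calls without replicate 4 and 410 without replicate 5. DESeq2 with the replicate block called 2254 genes for age without LPS and 1362 for the difference of responses. The cause of these changes was not tested. Depth limits the untreated values of Socs1 and Traf1, some of which rest on 0 to 3 counts.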
